A study of Homo sapiens with 39 samples.

Results

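The genes of DNA replication and nucleotide supply were followed in cultures of U87-MG, a long-established line of human glioblastoma cells, after a single high dose of gamma rays. The set holds 44 genes, chosen as a list of replication fork, origin and nucleotide genes, and every one was represented among the 20041 genes named on the bead array. Where a gene had several probes, the one with the highest mean signal was used. In at least 1 group all samples of a gene had to exceed background for it to be tested. This left 42 of the 44, among 11296 genes tested in all. DBF4, the activating partner of the kinase CDC7, was above background in 16 of 39 samples and CCNE2, a cyclin E, in 0, and neither was tested. Of the 42 genes, 34 were above background in all 39 samples; GINS1 (11 samples) and CDC6 (20 samples) were the dimmest.

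Cells received 0, 8 or 16Gy from a Cs-137 source, with sham irradiation at 0Gy, and were grown in serum-supplemented minimum essential medium. RNA was taken on days 1, 4, 6 and 35, which gives 12 groups, with 3 samples a group on days 1, 4 and 6 and 4 samples on day 35. In the paper, day 35 is a joint name for harvests on consecutive days around it. The sample titles do not say which sample came from which of these days. The sample numbered 1 of each dose on days 1, 4 and 6 is an average of repeat runs made by the authors. The paper describes the 3 short-term samples of a group as independent replicates. Whether samples of different doses with the same number come from 1 experiment is not stated. For day 35 the paper names 3 independent replicates where it describes the cultures and 4 experimental replicates where it describes the arrays. The 4 samples of a day 35 group may thus stand for fewer experiments, and p-values there may measure in part a technical spread. The cells of day 35 are the survivors of irradiation and their progeny, and the short-term and day 35 samples were normalized separately, so no level is compared between them. Vimentin (VIM), CD44, TNC and FN1, markers of a mesenchymal glioma line, were above background in all 39 samples, and the astrocyte markers GFAP and AQP4 in 0. So were the leukocyte marker PTPRC, the endothelial CDH5, the epithelial CDH1, the neuronal RBFOX3 and the oligodendrocyte MOG. Other markers of these cells were above background in some samples, PECAM1 in 9, SYT1 in 11, VWF and MBP in 2 and CD3E in 1, with no log2 signal over 7.03. The leukocyte marker CD79A was above background in 35 samples and the epithelial EPCAM in 23. Their median log2 signals were 6.95 and 6.89 and their highest 7.25, where the background was 6.78 to 6.90. Values are log2 signals. A gene was called when its Benjamini-Hochberg adjusted p from limma, over all genes tested, was under 0.10 and its fold change was over 1.5, and ± after a log2 difference is the standard error of that fit.

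Before a cell copies its DNA, the origin recognition complex, CDC6 and CDT1 load the ring-shaped MCM2-7 helicase onto origins. CDC45 and the GINS complex switch the helicase on, the clamp PCNA and its loader RFC hold the polymerases on the template, and ribonucleotide reductase and thymidylate synthase supply the nucleotides. Many of these genes are transcribed as cells pass from G1 into S phase, under control of E2F factors, and their transcripts are scarce in cells that have left the cycle.

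The promoters of these genes are shown because control by E2F is a feature for which these genes are known. RefSeq (GRCh38.p14) gave a promoter, the window of 300 bases from 250 before to 50 after the gene's start, for 36 of the 42 genes. The 4 words TTTGGCGC, TTTCCCGC, TTTGCCGC and TTTCGCGC, which resemble E2F sites, were searched on both strands, and words that overlap were counted separately. At least 1 of them was present in 19 of the 36 promoters, or 52.8%, against 3.33% of all 27305 promoters and 5.51% of the 9132 promoters of genes tested. The CCAAT word was present in 52.8% of the 36 and in 37.4% of the genes tested. The word TTTGAA, part of the CHR element of many mitotic genes, was present in 1 of the 36 (2.78%) and in 10.2% of the genes tested. A match describes the letters only. The 150 bases before the start are printed for MCM6, CDT1, TYMS and UHRF1, which hold E2F-like words (capitals), and for RRM2, which holds none in its window but 3 CCAAT words (capitals in its line only). In MCM6 the second run of capitals is a pair of words that overlap.
MCM6: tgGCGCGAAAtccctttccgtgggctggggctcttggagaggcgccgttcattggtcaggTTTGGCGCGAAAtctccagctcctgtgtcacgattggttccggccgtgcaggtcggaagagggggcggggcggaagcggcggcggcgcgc
CDT1: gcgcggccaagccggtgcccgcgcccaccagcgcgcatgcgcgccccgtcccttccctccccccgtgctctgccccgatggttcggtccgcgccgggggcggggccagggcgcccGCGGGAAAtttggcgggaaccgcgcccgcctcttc
TYMS: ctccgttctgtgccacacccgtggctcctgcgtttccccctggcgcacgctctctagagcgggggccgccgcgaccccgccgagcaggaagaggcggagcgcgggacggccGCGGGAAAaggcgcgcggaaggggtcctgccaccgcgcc
UHRF1: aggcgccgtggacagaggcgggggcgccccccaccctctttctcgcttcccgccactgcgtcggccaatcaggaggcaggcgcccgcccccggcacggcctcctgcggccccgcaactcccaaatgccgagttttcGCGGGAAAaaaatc
RRM2: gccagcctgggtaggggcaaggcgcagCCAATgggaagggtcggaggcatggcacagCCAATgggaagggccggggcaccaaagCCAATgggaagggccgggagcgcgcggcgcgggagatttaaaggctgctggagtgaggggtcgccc
These stretches lie at chr2:135876444-135876593 on the minus strand (MCM6), chr16:88803639-88803788 on the plus strand (CDT1), chr18:657503-657652 on the plus strand (TYMS), chr19:4909351-4909500 on the plus strand (UHRF1) and chr2:10122589-10122738 on the plus strand (RRM2).

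On day 1, the helicase genes had the lowest median of all roles in cells given 16Gy relative to unirradiated cells. At 16Gy, 10 of the 42 genes were lower and 0 higher, or 23.8%, where 1.22% of all genes tested were called. Of these 10, MCM2, MCM3, MCM4, MCM5 and MCM6 are helicase subunits, so 5 of 6 subunits were called, with a median log2 difference of -0.69. The others were RRM2, the small subunit of ribonucleotide reductase, PRIM1, the catalytic subunit of primase, FEN1, the flap endonuclease that trims Okazaki fragments, CCNE1, a cyclin E, and UHRF1, which recruits the maintenance DNA methyltransferase to newly copied DNA. The median over the 42 genes was -0.42, against 0.01 for all genes tested, and 39 of 42 means were below that of 0Gy. A bulk measurement of this kind cannot tell fewer cycling cells from less of a transcript in each cell.

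MCM3 had signals of 12.20, 11.98 and 12.08 at 0Gy on day 1, of 11.63, 11.24 and 11.80 at 8Gy, and of 11.40, 11.12 and 11.43 at 16Gy. All irradiated samples lay under all unirradiated ones, and the groups at 8Gy and 16Gy overlapped. The log2 difference at 16Gy was -0.77 ± 0.15 (limma, adjusted p = 0.0088), a level 1.71-fold lower. MCM6 had 11.78, 11.86 and 11.75 at 0Gy and 10.89, 11.18 and 11.14 at 16Gy, which do not overlap, with a difference of -0.73 ± 0.15 (limma, adjusted p = 0.012). MCM2 had 9.48, 9.35 and 9.05 at 0Gy and 8.77, 8.33 and 8.56 at 16Gy, again with no overlap, and differed by -0.74 ± 0.16 (limma, adjusted p = 0.018). MCM4 and MCM5 differed by -0.66 ± 0.17 (limma, adjusted p = 0.042) and -0.64 ± 0.17 (limma, adjusted p = 0.044). MCM7, at 12.01, 11.76 and 11.92 at 0Gy and 11.33, 11.27 and 11.34 at 16Gy, differed by -0.58 ± 0.14 (limma, adjusted p = 0.025), just under the fold that a call needs. It was 1 of 8 genes with an adjusted p under 0.10 but a smaller fold. The others were CDC45, the initiation kinase CDC7, the polymerase subunits POLA1, POLD1 and POLE2, and the clamp loader subunits RFC3 and RFC4.

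PRIM1 had 8.86, 8.70 and 8.39 at 0Gy and 8.08, 8.02 and 7.94 at 16Gy on day 1. The groups did not overlap and differed by -0.64 ± 0.15 (limma, adjusted p = 0.029). In GINS2, a subunit of the GINS complex, the samples at 16Gy (10.24, 10.27 and 10.06) were also all under those at 0Gy (11.10, 10.64 and 10.66), but at -0.61 ± 0.19 (limma, adjusted p = 0.11) it was not called. RFC4 had 10.32, 10.05 and 10.14 at 0Gy, 9.28, 9.43 and 9.98 at 8Gy and 9.61, 9.61 and 9.70 at 16Gy, with both irradiated groups under the unirradiated one, and differed at 16Gy by -0.53 ± 0.16 (limma, adjusted p = 0.089). CDC45, with 10.99, 10.66 and 10.91 at 0Gy and 10.27, 10.37 and 10.20 at 16Gy, did not overlap either and had -0.58 ± 0.16 (limma, adjusted p = 0.061).

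RRM2 had 10.19, 10.26 and 10.01 at 0Gy, 9.76, 9.60 and 9.83 at 8Gy, and 9.43, 9.62 and 8.79 at 16Gy on day 1. Every irradiated sample was under every unirradiated one, and the third 16Gy sample was far lower than the other 2. The log2 difference at 16Gy was -0.87 ± 0.26 (limma, adjusted p = 0.082), the lowest of the 42 genes, and -0.53 without that sample, when it was not called. The other nucleotide genes had smaller differences at 16Gy. TYMS, thymidylate synthase, had -0.40 ± 0.21, the 3 genes other than RRM2 lay between -0.40 and -0.20, and 0 of them were called.

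FEN1 had 11.12, 11.04 and 11.09 at 0Gy and 10.51, 10.50 and 10.43 at 16Gy, groups that were narrow and apart, with a log2 difference of -0.60 ± 0.12 (limma, adjusted p = 0.010). UHRF1 had 11.61, 11.38 and 11.55 at 0Gy and 10.69, 10.65 and 11.13 at 16Gy, with no overlap and a difference of -0.69 ± 0.17 (limma, adjusted p = 0.034). The second probes of FEN1, MCM3 and PRIM1, above background in all samples, gave -0.66, -0.93 and -0.61 at 16Gy where the probes used gave -0.60, -0.77 and -0.64. The second probe of MCM4, above background in 39 of 39 samples, gave -0.47 against -0.66, and that of UHRF1, above background in 26, gave -0.33 against -0.69, both short of the fold that a call needs. In CCNE1 the probes differed in sign. Its brightest probe fell by 0.60 on the log2 scale (standard error 0.17, limma, adjusted p = 0.067), from 8.87, 8.53 and 8.86 to 8.14, 8.19 and 8.12, while its other probe, above background in 14 of 39 samples, gave 0.08.

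Not every replication gene was low on day 1. PCNA had 9.73, 9.49 and 9.26 at 0Gy and 9.59, 9.23 and 9.37 at 16Gy, which overlap, with a difference of -0.09 ± 0.15 (limma, adjusted p = 0.83). A second probe of PCNA, above background in 33 of 39 samples, gave -0.29. ORC6, a subunit of the origin recognition complex, differed by 0.07 ± 0.14. GINS1 differed by 0.12 ± 0.08, but its 0Gy signals of 6.83, 6.61 and 6.66 were under the background of their samples, so a fall could not be seen. Among the 5 licensing genes 0 were called, with a median of -0.16; CDT1, the loading factor, had 10.22, 9.48 and 10.29 at 0Gy and 9.13, 9.61 and 9.41 at 16Gy, which overlap, and a difference of -0.61 ± 0.19 (limma, adjusted p = 0.11). Of the 5 genes of the clamp and its loader 0 were called, with a median of -0.41. Second probes above background in all 39 samples gave -0.77 for RFC4, -0.52 for RFC3 and -0.08 for RFC2, against -0.53, -0.48 and -0.21. That of RFC4 passed the fold that a call needs, but these probes were not tested. Dimmer probes of RFC5 and RFC3, above background in 6 and 19 samples, gave -0.07 and -0.03. Of the 8 polymerase and primase genes 1 was called, PRIM1, with a median of -0.37 over the 8.

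At 8Gy limma called 0 of the 42 genes on day 1, where 0.133% of all genes tested were called; 17 of the 42 had an unadjusted p under 0.05. The median log2 difference was -0.28, and 38 of 42 means were below that of 0Gy. All 3 samples at 8Gy lay under all 3 at 0Gy for 15 of the 42 genes, against 5.9% of all genes tested; at 16Gy the count was 23, against 9.05%. The lowest value at 8Gy was that of RFC4, a clamp loader subunit, at -0.61 ± 0.16 (limma, adjusted p = 0.18). The second probe of RFC4 gave -0.68. The comparisons of both doses use the same 0Gy samples. Compared directly on day 1, 16Gy and 8Gy differed in 0 of 42 genes by limma, where 0% of all genes tested were called, with 6 of the 42 at an unadjusted p under 0.05, a median of -0.12 and the lowest value, -0.45 ± 0.26, at RRM2.

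The calls at 16Gy on day 1 rest on few samples. Their number was 2 without 0Gy replicate 1 and 3 without 16Gy replicate 3, and up to 14 without 0Gy replicate 3. MCM3 and MCM6 were called whichever of these 6 samples was left out. Without 0Gy replicate 1 the other 8 genes all lost their call, and without 16Gy replicate 3 those of CCNE1, FEN1, MCM4, MCM5, PRIM1, RRM2 and UHRF1 were lost. Without 0Gy replicate 2 those of MCM4, MCM5, PRIM1, RRM2 and UHRF1 were lost, without 16Gy replicate 2 those of CCNE1, MCM2, MCM5 and UHRF1, without 16Gy replicate 1 that of CCNE1, and without 0Gy replicate 3 that of CCNE1. For 8Gy on that day, 3 genes were called once 0Gy replicate 3 was dropped and 1 once 8Gy replicate 3 was dropped.

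**Figure D1:**
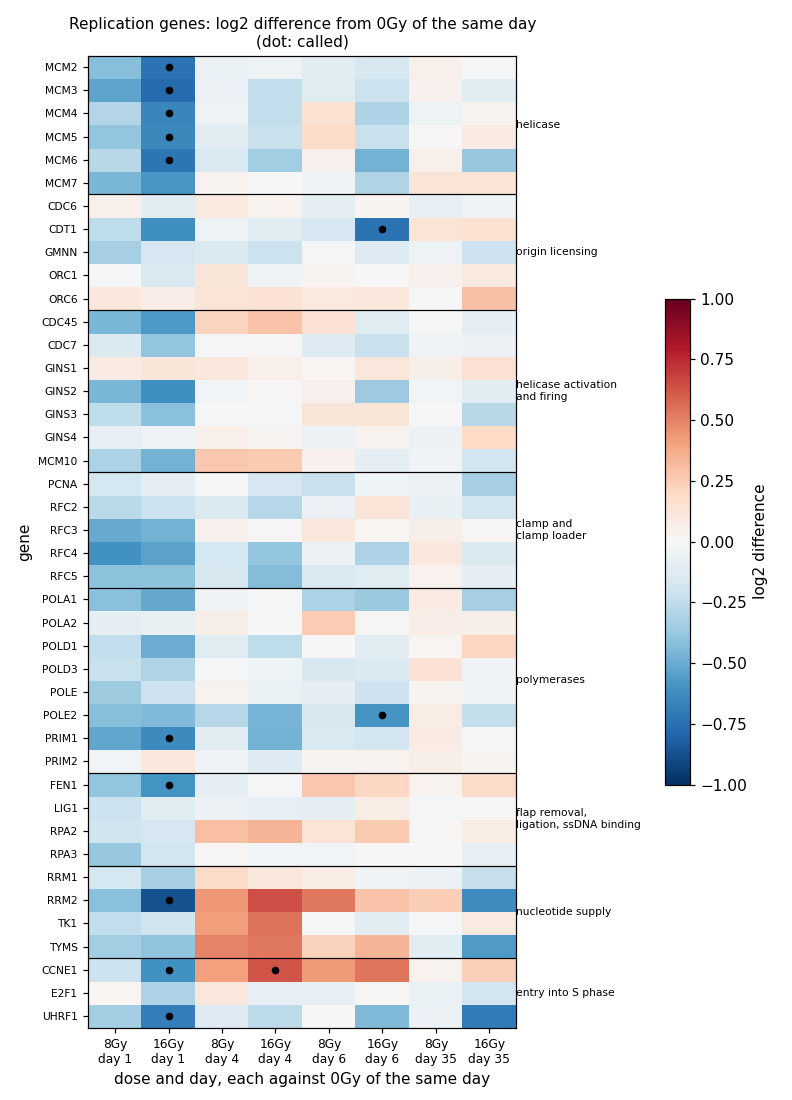
Log2 difference of 42 replication genes (rows, by role) from 0Gy of the same day, at 8 and 16Gy on days 1, 4, 6 and 35 (columns). Blue is lower and red higher than 0Gy, and a dot marks a called gene; 10 dots stand in the column of 16Gy on day 1, 1 on day 4 and 2 on day 6.

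On day 4 the median difference was close to 0. At 16Gy, 1 of the 42 genes was called, CCNE1, which was higher (4.67% of all genes tested were called), and the median was -0.03, equal to that of all genes tested. At 8Gy limma called 0 of 42 (1.79% of all genes tested), with 4 at an unadjusted p under 0.05 and a median of -0.01. On day 6, 2 of 42 genes were lower at 16Gy, CDT1 and POLE2 (7.86% of all genes tested were called), with a median of -0.10, and limma called 0 at 8Gy (3.23% of all genes tested), with 3 at an unadjusted p under 0.05. The shares called among the replication genes on days 4 and 6 were thus under those of all genes. Samples that do not overlap were also common among all genes on these days. On day 4 all 3 samples at 16Gy lay above all 3 at 0Gy for 5 of the 42 genes and under them for 8. Of all genes tested, 12.2% and 15.6% did so. On day 6 the counts were 3 and 5 of the 42, against 15.3% and 19.5% of all genes tested. Between 16Gy and 8Gy, limma called 0 of 42 on day 4 (0.0177% of all genes tested; 1 of the 42 at an unadjusted p under 0.05) and 0 of 42 on day 6 (0.398%; 7 of the 42).

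The unirradiated cultures themselves had changed by day 4. From day 1 to day 4 at 0Gy, 23 of the 42 genes fell and 0 rose, or 54.8%, where 6.43% of all genes tested were called. The median log2 difference was -0.64, against 0.01 for all genes tested, and 41 of 42 means were lower. All 3 samples of day 4 lay under all 3 of day 1 for 37 of the 42 genes, against 13.3% of all genes tested. All 4 nucleotide supply genes fell, with a median of -1.21, as did 5 of 6 helicase subunits (median -0.82), 3 of 7 genes of helicase activation and firing, 4 of 8 polymerase and primase genes, 3 of 5 clamp and clamp loader genes, 2 of the 3 tested genes of entry into S phase, 1 of 5 licensing genes and 1 of 4 genes of flap removal, ligation and single-strand binding. From day 4 to day 6 limma called 0 of 42 at 0Gy, where 0% of all genes tested were called, with 3 at an unadjusted p under 0.05 and a median of -0.05.

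RRM2 at 0Gy went from 10.19, 10.26 and 10.01 on day 1 to 8.56, 8.00 and 8.62 on day 4, and had 8.34, 8.14 and 8.77 on day 6. The day 4 samples were all far under those of day 1, by -1.76 ± 0.26 (limma, adjusted p = 2.8e-05), a level 3.38-fold lower. TYMS, which makes thymidylate, went from 11.48, 11.54 and 10.93 to 10.11, 9.88 and 9.98, a difference of -1.33 ± 0.21 (limma, adjusted p = 6.4e-05). GINS2 differed by -1.23 ± 0.19 and CDC45 by -1.21 ± 0.16, with no overlap between days in either gene. ORC6, at -0.07 ± 0.14, and GINS1, at 0.00 ± 0.08, did not pass the test. The GINS1 signals at 0Gy were under background on both days, so a fall of GINS1 could not be seen. Of the 10 genes called lower at 16Gy on day 1, 9 were also among the 23 that fell at 0Gy from day 1 to day 4; both comparisons use the 0Gy samples of day 1, so this overlap is partly built in. MCM2 was the one that was not, at -0.46 ± 0.16 (limma, adjusted p = 0.054).

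In irradiated cells fewer of the genes were called between the same days, though most means fell. Means were lower for 41 of 42 genes at 8Gy and for 38 at 16Gy. At 8Gy 6 of 42 were called lower from day 1 to day 4, CDT1, GINS2, MCM4, MCM6, RRM2 and UHRF1 (2.89% of all genes tested were called), with a median of -0.32. At 16Gy 5 were called lower, GINS2, POLA2, PRIM1, RFC5 and UHRF1 (4.2% of all genes tested), with a median of -0.33. From day 4 to day 6 limma called 0 of 42 at 8Gy (0.0177% of all genes tested; 0 at an unadjusted p under 0.05) and 0 of 42 at 16Gy (0.23%; 8 of the 42 at an unadjusted p under 0.05). Single samples moved these counts. Dropping replicate 1 of 8Gy on day 1 left 2 genes at 8Gy, dropping replicate 3 of that group gave 10, and dropping replicate 2 of 8Gy on day 4 left 1. At 16Gy, 2 genes were left on dropping replicate 1 or replicate 2 of day 1, or replicate 3 of day 4. From day 4 to day 6 at 16Gy, 3 genes were called once replicate 1 of day 4 was dropped.

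**Figure D2:**
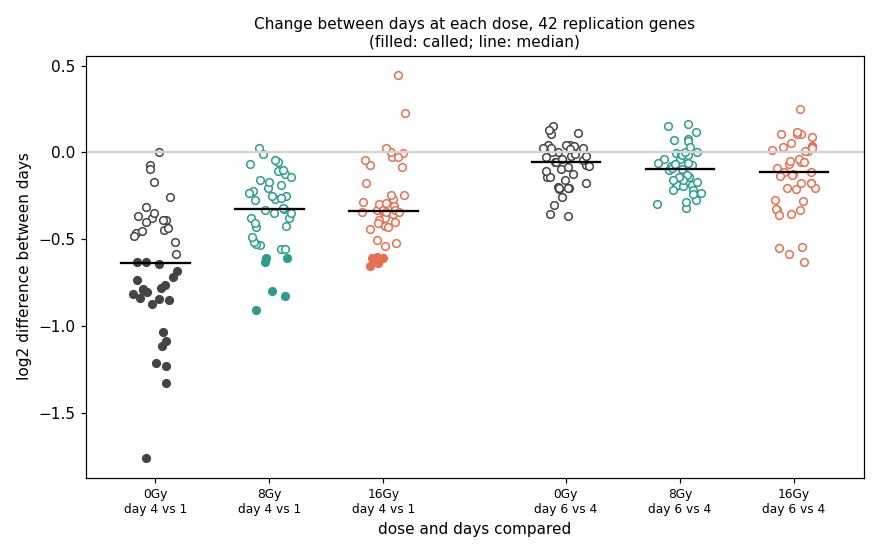
Log2 difference between days for each of the 42 genes (points), at 0, 8 and 16Gy, from day 1 to day 4 and from day 4 to day 6; filled points are called and the black line is the median. The medians from day 1 to day 4 were -0.64 at 0Gy, -0.32 at 8Gy and -0.33 at 16Gy.

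The difference between a dose and 0Gy can itself move from one day to another, and this was tested with the interaction term of the fit. Between days 1 and 4 the 16Gy effect rose for 8 of the 42 genes and fell for 0 (4.61% of all genes tested were called), with a median change of 0.39. The 8 were RRM2, CCNE1, TYMS, CDC45, MCM10, which helps to start the helicase, MCM2, MCM7 and FEN1. For the 8Gy effect limma called 0 of 42 (0.39% of all genes tested), with 12 at an unadjusted p under 0.05 and a median change of 0.25. From day 4 to day 6 limma called 0 of 42 for 8Gy (0% of all genes tested; 1 of the 42 at an unadjusted p under 0.05) and 0 of 42 for 16Gy (0.062%; 3 of the 42).

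RRM2 at 16Gy had 8.99, 9.41 and 8.70 on day 4, against 8.56, 8.00 and 8.62 at 0Gy, so all irradiated samples were now above the unirradiated ones. The difference was 0.65 ± 0.26 (limma, adjusted p = 0.12), and its change from day 1 was 1.52 ± 0.37 (limma, adjusted p = 0.017). In TYMS the samples at 16Gy on day 4, at 10.41, 10.49 and 10.63, were likewise all above those at 0Gy, at 10.11, 9.88 and 9.98. Its difference was 0.52 ± 0.21 (limma, adjusted p = 0.12) and the change from day 1 was 0.93 ± 0.30 (limma, adjusted p = 0.080). CDC45 had -0.58 on day 1 and 0.29 on day 4, a change of 0.87 ± 0.23 (limma, adjusted p = 0.027), and on day 4 its samples at 16Gy (9.78, 9.80 and 10.21) overlapped those at 0Gy (9.89, 9.38 and 9.66).

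For the other 4 genes the differences on day 4 were 0.26 for MCM10, -0.05 for MCM2, 0.01 for MCM7 and -0.02 for FEN1, and none was called. MCM10 had 7.58, 7.52 and 7.32 at 0Gy and 7.53, 7.60 and 8.08 at 16Gy on day 4, after 8.80, 8.35 and 8.60 and 8.08, 8.15 and 8.12 on day 1, and its effect changed by 0.73 ± 0.22 (limma, adjusted p = 0.058). MCM2 had 8.82, 9.07 and 8.60 at 0Gy and 8.55, 8.94 and 8.85 at 16Gy on day 4, groups that overlap, and changed by 0.69 ± 0.23 (limma, adjusted p = 0.095). For MCM7 the change was 0.59 ± 0.19 (limma, adjusted p = 0.085) and for FEN1 it was 0.59 ± 0.17 (limma, adjusted p = 0.051). A second probe of MCM10, above background in 24 of 39 samples, gave -0.27 on day 1 and -0.05 on day 4, against -0.47 and 0.26. One of MCM7, above background in 38, gave -0.42 and -0.09, against -0.58 and 0.01. That of FEN1, above background in all 39, gave -0.66 and -0.04, against -0.60 and -0.02. The change was not fitted for these second probes alone. The changes of RRM2 and CCNE1 were called whichever sample was dropped, and that of CDC45 was lost only on dropping replicate 3 of 16Gy on day 1. That sample left 2 of the 8 changes; 3 were left on dropping replicate 1 of 0Gy on day 1, replicate 3 of 0Gy on day 4, or replicate 2 or replicate 3 of 16Gy on day 4, and 4 on dropping replicate 2 of 0Gy on day 1.

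The 4 nucleotide supply genes were above 0Gy on day 4 by a median of 0.53 at 16Gy, with values from 0.12 to 0.65, and by 0.43 at 8Gy, with values from 0.19 to 0.49; 0 of them were called at either dose. TK1, thymidine kinase, had 9.76, 9.06 and 9.40 at 0Gy, 9.52, 9.93 and 10.02 at 8Gy and 9.66, 10.05 and 10.15 at 16Gy, so that the irradiated and unirradiated samples overlapped. On day 6 TYMS had 10.01, 9.62 and 10.28 at 0Gy and 9.64, 10.48 and 10.80 at 16Gy, which overlap, with a difference of 0.34 ± 0.21 (limma, adjusted p = 0.28). RPA2, a subunit of the single-strand binding protein RPA, was above 0Gy in all samples at 16Gy on days 4 and 6, with 10.75, 10.64 and 10.77 against 10.49, 10.36 and 10.28 on day 4 and 10.73, 10.56 and 10.70 against 10.36, 10.51 and 10.35 on day 6. The differences were 0.34 ± 0.13 (limma, adjusted p = 0.087) and 0.26 ± 0.13 (limma, adjusted p = 0.16), and neither was called. Among all genes tested, 12.2% on day 4 and 15.3% on day 6 were above 0Gy in all samples at 16Gy.

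CCNE1, whose product with CDK2 drives entry into S phase, was the 1 gene called in both directions. At 16Gy it had 8.14, 8.19 and 8.12 on day 1, then 8.26, 8.86 and 8.66, then 8.01, 8.56 and 8.69 on the later days. At 0Gy it had 8.87, 8.53 and 8.86, then 8.16, 7.97 and 7.78, then 8.00, 7.66 and 7.99. On day 4 the irradiated samples were all above the unirradiated ones, by 0.63 ± 0.17 (limma, adjusted p = 0.015), and the change of the effect from day 1 was 1.23 ± 0.24 (limma, adjusted p = 0.0036). On day 6 the difference of 0.54 ± 0.17 was under the fold that a call needs (limma, adjusted p = 0.026). The other probe of CCNE1 gave 0.13 (day 4) and -0.11 (day 6), so these calls rest on 1 probe. On day 4 the call was lost on dropping replicate 3 of 0Gy or replicate 2 of 16Gy, while 3 genes were called on dropping replicate 1 of 0Gy and 2 on dropping replicate 1 or replicate 3 of 16Gy.

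CDT1 and POLE2 were low at 16Gy on day 6. CDT1 had 8.35, 8.58 and 8.47 against 9.03, 8.88 and 9.69 at 0Gy, with no overlap, and differed by -0.73 ± 0.19 (limma, adjusted p = 0.0077). Its samples on day 4 overlapped, at 8.76, 9.01 and 9.39 against 9.29, 9.01 and 9.17. POLE2, an accessory subunit of the leading strand polymerase, had 7.41, 7.28 and 7.45 against 8.04, 7.72 and 8.15 on day 6, and differed by -0.59 ± 0.13 (limma, adjusted p = 0.0015). On day 4 all 3 samples at 16Gy (7.56, 7.46 and 7.39) were also under those at 0Gy (7.75, 8.08 and 7.96), by -0.46 ± 0.13 (limma, adjusted p = 0.019), but under the fold that a call needs. MCM6 had 10.43, 10.16 and 10.57 at 16Gy on day 6, against 10.91, 10.75 and 10.92 at 0Gy, with no overlap and -0.48 ± 0.15 (limma, adjusted p = 0.024), again under that fold. GINS2 (-0.37 ± 0.19) and RFC4 (-0.31 ± 0.16) were the genes with the largest difference among helicase activation and clamp loader genes on day 6, and neither passed. Both calls of day 6 were lost on dropping replicate 3 of 0Gy, 1 was left on dropping replicate 2 of 16Gy, and 4 genes were called on dropping replicate 1 of 16Gy. At 8Gy, dropping replicate 1 gave 1 call.

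**Figure D3:**
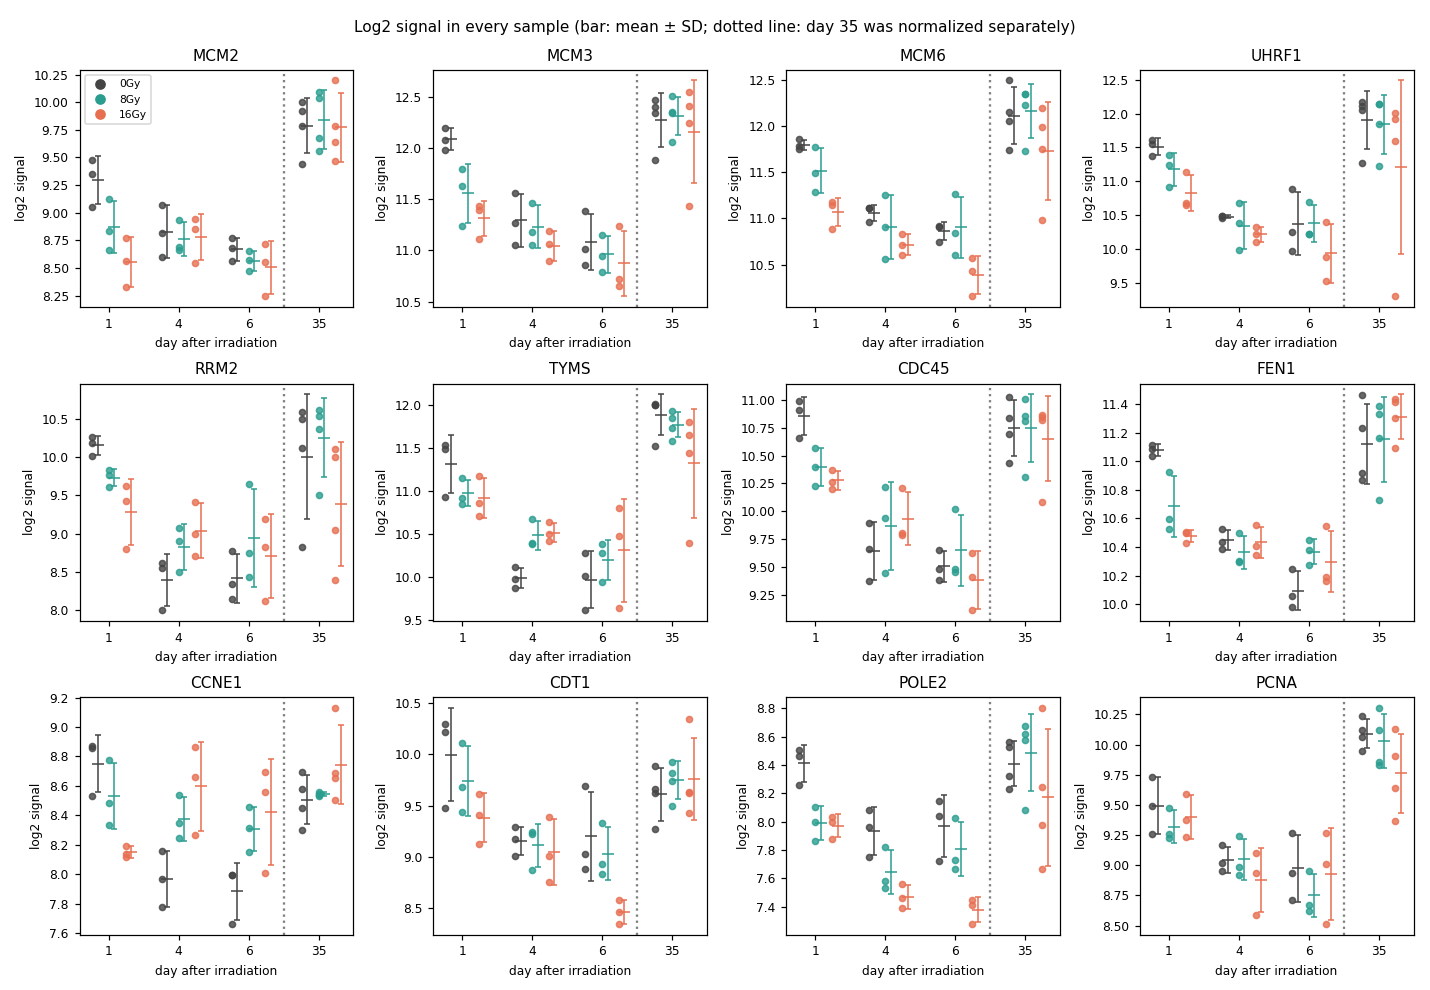
Log2 signal of 12 replication genes in every sample (points) by day and dose, with mean and SD beside them; the dotted line parts day 35, which was normalized separately. The 0Gy points of RRM2 fall from 10.01 or more on day 1 to 8.62 or less on day 4, while those of PCNA overlap between doses on every day.

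The mean over the 42 genes, each centred on its own mean over the samples normalized together, gives the same course by sample. For day 1, with n = 3 a group, unirradiated cultures averaged 0.54 (SD 0.10), those given 8Gy 0.26 (SD 0.10) and those given 16Gy 0.15 (SD 0.03). All 0Gy samples, between 0.46 and 0.66, were above all irradiated ones, between 0.12 and 0.32. The corresponding means of day 4 were -0.11 (SD 0.03), -0.08 (SD 0.17) and -0.14 (SD 0.06). Those of day 6 were -0.19 (SD 0.15), -0.17 (SD 0.16) and -0.27 (SD 0.16), and the doses overlapped on both days.

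**Figure D4:**
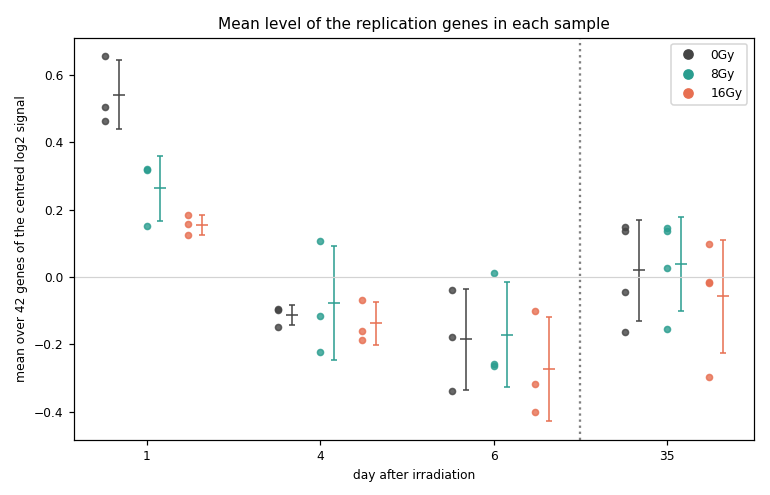
Mean over the 42 genes of the centred log2 signal in each sample (points), with mean and SD, by day and dose; day 35, right of the dotted line, was normalized and centred separately. On day 1 the 0Gy samples lie between 0.46 and 0.66, above all irradiated samples, and on days 4 and 6 the doses overlap.

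On day 35 limma called 0 of the 42 genes at 8Gy (0% of all genes tested; 0 of the 42 at an unadjusted p under 0.05) and 0 at 16Gy (0.00885% of all genes tested; 2 of the 42 at an unadjusted p under 0.05). The median log2 differences were 0.02 and -0.04. The smallest p of a single gene in an exact two-sided permutation test of 4 samples against 4, unpaired and not below 0.029 by design, was 0.057, for ORC6 at 16Gy. It is the smallest of tests of 42 genes at each dose and is not adjusted. It rests on 1 probe: the one used gave 0.30, and the second, also above background in all 39 samples, gave -0.17. The samples numbered 4 were low at every dose: they had the lowest mean over the 42 genes, -0.16 at 0Gy, -0.15 at 8Gy and -0.30 at 16Gy, and held the lowest signal of 21, 25 and 23 of the 42 genes, where 33.9%, 35.1% and 41.7% of all genes tested were lowest in them.

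Samples of day 35 with the same number deviated together, those numbered 3 the least, and the comparison was also made within numbers. At 16Gy, GMNN, MCM6, PCNA, RPA3, RRM2, TYMS and UHRF1 were lower and ORC6 was higher than 0Gy in all 4 pairs, or 8 of the 42 genes (19%), where 23.5% of all genes tested had 1 sign in all pairs. At 8Gy this held for 5 of the 42 (11.9%, against 13.8%). An exact two-sided paired permutation test of 4 pairs cannot go below 0.125. With the replicate number as a block, limma called 0 of 42 at each dose, with 5 of the 42 at an unadjusted p under 0.05 at 16Gy and 0 at 8Gy, and the smallest adjusted p at 16Gy was 0.34.

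UHRF1 on day 35 had 12.05, 12.17, 12.11 and 11.28 at 0Gy, 12.15, 11.85, 12.14 and 11.23 at 8Gy, and 12.01, 11.92, 11.59 and 9.31 at 16Gy. The sample numbered 4 was the lowest at each dose and by far the lowest at 16Gy. The log2 difference at 16Gy was -0.70 ± 0.49 with all samples and -0.27 ± 0.13 without those numbered 4 (limma, adjusted p = 0.86 and 0.81). RRM2 had 10.12, 10.50, 10.58 and 8.83 at 0Gy and 10.10, 10.00, 9.05 and 8.40 at 16Gy, groups that overlap. It differed by -0.62 ± 0.44, and by -0.68 ± 0.22 without the samples numbered 4 (limma, adjusted p = 0.86 and 0.78). Without them limma called 0 of 42 genes at either dose, with medians of 0.02 and -0.02. With all samples and the number as a block, UHRF1 had -0.70 ± 0.28 and RRM2 -0.62 ± 0.21 (limma, adjusted p = 0.35 and 0.34).

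Other genes of replication and nucleotide metabolism were read from the same fits. Of 39 tested, 2 were lower at 16Gy on day 1, where 1.22% of all genes tested were called. They were CDC25A, the phosphatase that activates CDK2, at -0.60 ± 0.13 (limma, adjusted p = 0.016), and DCK, deoxycytidine kinase, at -0.70 ± 0.19 (limma, adjusted p = 0.064). The median over the 39 was -0.17. From day 1 to day 4 at 0Gy 12 of the 39 fell (6.43% of all genes tested were called), with a median of -0.24. On day 6 at 16Gy 1 of the 39 was lower and 1 higher, where 7.86% of all genes tested were called. CHAF1B, a histone chaperone of the fork, was lower by -0.66 ± 0.17 (limma, adjusted p = 0.0059). RRM2B, the p53-induced small subunit of ribonucleotide reductase, was higher by 0.76 ± 0.16 (limma, adjusted p = 0.0013), on the day when RRM2 differed by 0.29 ± 0.26.

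Of 12 genes of E2F factors and pocket proteins, 1 was lower at 16Gy on day 1, RBL1, which encodes p107, at -0.60 ± 0.15 (limma, adjusted p = 0.038), and the median was -0.30. Of 20 mitosis genes 6 were lower at 16Gy on day 1, 0 on day 4 and 7 on day 6, among them CCNB2, a cyclin B, at -0.81 ± 0.16 on day 6 (limma, adjusted p = 6.2e-04). Of all genes tested, 1.22%, 4.67% and 7.86% were called at 16Gy on days 1, 4 and 6. At 0Gy 19 of the 20 fell from day 1 to day 4 (6.43% of all genes tested were called), with a median of -1.13. The medians at 16Gy on day 6 were -0.46 for the mitosis genes and -0.10 for the 42 replication genes. Whether the lists differ was not tested.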

How the data were processed

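RNA of U87-MG cells was measured on Illumina HumanHT-12 v4 bead arrays. The authors exported signals with GenomeStudio, quantile normalized them separately for the 27 short-term and 12 day 35 samples, and adjusted the short-term samples with ComBat, for batches not given in the sources used here. The deposited log2 values of 47300 probes were used as they stand; 0 values lay under a floor of 16. An unnormalized table numbers its 48 arrays without naming samples, so its 96 columns were not used. Arrays give no counts, and their number limits the precision.

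Probes were named with the platform annotation, updated through RefSeq: 30100 name 1 gene, 8 several and 17192 none. A gene was tested when under a share of 0.05 of 455 olfactory receptor probes was brighter than it in every sample of a group, and 16553 to 20290 probes a sample passed. This threshold, in place of negative control beads, assumes that these cells do not transcribe those genes.

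Linear models with a mean-variance trend (limma 3.58.1, data.table version 1.17.8, R 4.3.3) were fitted to the short-term samples, including the replicate number, and to day 35 without it, and were tested on simulated data. Sham irradiation ran in parallel with each replicate. Deviations of samples with the same number had correlations of 0.09, 0.29 and 0.22 (day 1), -0.13, 0.10 and 0.12 (day 4), 0.39, 0.23 and 0.20 (day 6), and 0.62, 0.40, 0.28 and 0.71 (day 35). The numbers thus do not pair every short-term sample. On day 35 the correlations of numbers 1, 2 and 4 were above all short-term ones, while that of number 3 was within their range. Within-number values are given too for day 35.

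The genes and lists were chosen with earlier results of these data known. Genes are named if called most often against 0Gy, if they had the largest difference of their role at 16Gy on day 1 or 6, if an interaction was called, or if called against the common direction; others were named after their values were seen. The alternatives tried were the replicate term, each day alone, the filter, the probe rule, the trend, a stricter threshold, an analysis of variance, each sample left out, and, chosen after the data were seen, the samples numbered 4 of day 35 left out.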

Additional observations from a re-analysis of the deposited data

Results flagged for a closer look

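On day 35, where each dose has 4 samples, 1 sample stood far from the other 3 in 15 of 129 sets of 4 values (by Dixon's test of the gap to its nearest neighbour). Chance gives about 1 such set in 20 on average. The sets share the same arrays and are not independent, so whether 15 exceeds chance was not tested. In 11 of the 15 it was the lowest and was the sample numbered 4. In 0Gy replicate 1 the log2 signal was 10.67 for MCM5 (others 11.00 to 11.06). In 0Gy replicate 2 the log2 signal was 8.46 for RFC2 (others 8.67 to 8.71). In 0Gy replicate 4 the log2 signal was 9.68 for RFC4 (others 10.14 to 10.16), 11.53 for TYMS (others 12.00 to 12.01), 11.28 for UHRF1 (others 12.05 to 12.17). In 8Gy replicate 4 the log2 signal was 8.16 for MCM10 (others 8.96 to 9.02), 8.08 for POLE2 (others 8.58 to 8.68), 11.21 for RRM1 (others 12.14 to 12.31). In 16Gy replicate 4 the log2 signal was 10.47 for MCM4 (others 11.75 to 11.78), 10.08 for CDC45 (others 10.82 to 10.87), 9.81 for RFC5 (others 10.25 to 10.32). In 16Gy replicate 4 the log2 signal was 7.82 for POLA1 (others 9.16 to 9.40), 9.31 for UHRF1 (others 11.59 to 12.01). In 16Gy replicate 2 the log2 signal was 8.75 for RFC3 (others 8.42 to 8.47). In 16Gy replicate 3 the log2 signal was 9.06 for POLE (others 8.52 to 8.55).

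The difference between 16Gy and 0Gy moved from day 1 to day 4, by the interaction of dose and day in limma, in 8 genes. The change of the log2 difference was 1.23 for CCNE1, 0.87 for CDC45, 0.59 for FEN1, 0.73 for MCM10, 0.69 for MCM2, 0.59 for MCM7, 1.52 for RRM2, 0.93 for TYMS. Of these genes, 7 of the 8 were called lower at 0Gy on day 4 than on day 1, and both tests use the same 0Gy samples.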

How the results depend on the processing

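Counts of replication genes called are given here where another choice moved them by over 1.5 times. The called differences kept their sign under these choices, but CCNE1 changed sign with its other probe at 16Gy on days 1 and 6. With 1 sample left out, medians over the 42 genes crossed 0, from -0.04 to 0.04 at 8Gy on day 4, -0.07 to 0.04 at 8Gy on day 6, and, on day 35, -0.03 to 0.07 at 8Gy and -0.12 to 0.03 at 16Gy. At 16Gy on day 4 the count of 1 was 2 with each day fitted alone and 0 with the mean of all probes or the analysis of variance. The 8 changes of the 16Gy effect from day 1 to day 4 were 4 without the filter and 3 at an adjusted p under 0.05. At 8Gy on day 1 the count of 0 was 2 with the mean of all probes and 1 by the analysis of variance. At 16Gy from day 1 to day 4 the count of 5 was 2 with the mean of all probes, and at 16Gy on day 6 the count of 2 was 1 by the analysis of variance, which lost CDT1. The analysis of variance also lost 4 of the 10 calls at 16Gy on day 1, those of RRM2, MCM4, UHRF1 and CCNE1, with 7 genes called in all. The mean of all probes lost CCNE1, MCM4, RRM2 and UHRF1 there. Without the replicate block the short-term counts stayed within 1.5 times, with 10 at 16Gy on day 1, 23 at 0Gy from day 1 to day 4, and 7 changes of the 16Gy effect in place of 8; with a replicate block on day 35 the counts were 0 and 0. With 1 sample left out the counts ran from 0 to 3 at 8Gy and 2 to 14 at 16Gy on day 1, 0 to 3 at 16Gy on day 4, and 0 to 1 at 8Gy and 0 to 4 at 16Gy on day 6. They ran from 1 to 10 at 8Gy and 2 to 5 at 16Gy from day 1 to day 4, 0 to 3 at 16Gy from day 4 to day 6, 20 to 27 at 0Gy from day 1 to day 4, and 2 to 9 for the change of the 16Gy effect. The causes of these shifts were not tested. With 3 samples a group and signals of 8 genes at or under background in some samples, small differences were not detectable.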
